A study of Mus musculus with 3 samples.

Results

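A set of 8 microRNAs (miRNAs) known as markers of epithelia was followed in exosomes released by mouse macrophages: the 5 guide strands of the miR-200 family (mmu-miR-200a-3p, mmu-miR-200b-3p, mmu-miR-200c-3p, mmu-miR-141-3p and mmu-miR-429-3p) together with mmu-miR-203-3p, mmu-miR-205-5p and mmu-miR-375-3p, written below without the prefix for mouse. They were chosen by name, and all 8 were found among the 1915 mature miRNAs listed. The exosomes, small vesicles shed by cells, came from bone-marrow-derived macrophages of wild-type C57BL/6 mice. Marrow cells were given M-CSF, a cytokine that turns marrow precursors into macrophages, for 24 h, moved to medium with exosome-depleted serum, and the vesicles were pelleted by ultracentrifugation after 72 h of culture. There was 1 group of 3 small RNA libraries (libraries 1, 2 and 3) and no library of the parent cells, of another cell type or of medium alone. No label ties a library to its own culture or animal, and the spread between libraries may therefore be technical. In such a bulk pellet, more vesicles from one source and more copies per vesicle cannot be told apart.

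The miR-200 family keeps epithelial cells epithelial: it represses Zeb1 and Zeb2, transcription factors that switch off E-cadherin, and these factors in turn repress the miR-200 genes. MiR-203 is known from skin, where it limits the renewal of keratinocytes. MiR-205 is known from stratified epithelia and basal cells and also represses Zeb factors, and miR-375 is best known from pancreatic islets and other endocrine and secretory epithelia. The cells that the copies in these pellets came from were not tested.

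Mature sequences are shown because the family falls into a pair of target-recognition groups that differ at a single seed base, and the results below are given by these groups. Of the 8 miRNAs, 7 had a mature sequence in the RefSeq table (build GRCm38.p6). MiR-375-3p was the other. Sequences run 5′ to 3′, and capitals mark the seed, bases 2 to 8, which pairs with target messages.
miR-200b-3p: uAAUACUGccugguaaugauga
miR-200c-3p: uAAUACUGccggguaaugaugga
miR-429-3p: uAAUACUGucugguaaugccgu
miR-200a-3p: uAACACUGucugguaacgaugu
miR-141-3p: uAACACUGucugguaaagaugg
miR-203-3p: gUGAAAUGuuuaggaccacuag
miR-205-5p: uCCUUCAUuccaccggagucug
These hold 4 distinct seeds. The seed AAUACUG is shared by miR-429-3p, miR-200b-3p and miR-200c-3p, the seed AACACUG by miR-200a-3p and miR-141-3p, and no other mature miRNA of the table carries either. The seeds of miR-203-3p and miR-205-5p were each found in no other entry. With positions counted from 1 at the 5′ end of miR-200b-3p, miR-200a-3p differed from it by U4C in the seed and by C9U, U17C and A22U outside it. Within a seed group the closest miRNAs were nearly alike. Over 22 bases miR-200c-3p differed from miR-200b-3p by U11G and A22G, and miR-141-3p differed from miR-200a-3p by C17A and U22G. The sources used here do not state how reads were divided between such close sequences. The split within these pairs is therefore less certain than the split between seed groups. MiR-429-3p was further from its group, differing from miR-200b-3p at 4 bases and from miR-200c-3p at 5, all outside the seed.

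The family's genes lie in 2 clusters that cut across the seed groups. In GRCm38 coordinates, Mir200b (156055681 to 156055750), Mir200a (156054896 to 156054985) and Mir429 (156053905 to 156053987) sit on the minus strand of chromosome 4, with 695 and 908 bases between neighbours. GENCODE places all 3 within introns of the protein-coding gene Ttll10, and Mir429 also overlaps an exon of the noncoding transcript Gm13648. Mir200c (124718322 to 124718390) and Mir141 (124717914 to 124717985) sit 336 bases apart on the minus strand of chromosome 6, within an intron of the noncoding gene Gm15884. The mature miR-200b-3p, for example, lies at chr4:156055685-156055706 and miR-200c-3p at chr6:124718324-124718346. Mir203 (chromosome 12, 112130880 to 112130955, plus strand) and Mir375 (chromosome 1, 74900658 to 74900721, minus strand) overlapped no other annotated gene. Mir205 (chromosome 1, 193507463 to 193507530, minus strand) lies in an exon of the noncoding gene 4631405K08Rik.

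The libraries held 2489984 to 3208617 counts of mature miRNAs, and levels are given as counts per 1000000 of that total (CPM). A count of 0 allows 3 counts, or 0.935 to 1.20 CPM. Wilson 95% intervals, exact intervals and these floors cover counting error only. A list of 7 miRNAs was taken as myeloid: miR-21a-5p, miR-146a-5p, both arms of miR-142a, miR-223-3p, miR-155-5p and miR-342-3p. All 7 reached 10 counts in each library and summed to 71311 to 345020 CPM, lowest in library 1. Nearly all of this was miR-21a-5p and miR-146a-5p, and the other 5 summed to 594, 4730 and 2136 CPM in libraries 1, 2 and 3. MiR-342-3p went the other way, highest in library 1 (149, 106 and 65.4 CPM). MiR-223-3p was no lower in library 1 than in library 3 (35.6, 52.6 and 33.0 CPM). Library 1 stood apart from the others over all miRNAs. Among the 353 miRNAs whose counts over the libraries added up to 30 or more, the median log2 ratio was -0.75 for library 2 over library 1, -0.9996 for library 3 over library 1 and -0.22 for library 3 over library 2. Scaling by edgeR's TMM factors brought these medians to -0.13, -0.14 and 0.03.

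The epithelial miRNAs were all present at low levels, and their sum differed several-fold between libraries. Each had at least 1 count in every library, and 6 of 8 reached 10 counts in each, the exceptions being miR-141-3p and miR-375-3p. Over all miRNAs, 505 of 1915 had a count in every library and 273 had at least 10. The 8 together had 313, 1186 and 1131 counts in libraries 1, 2 and 3, or 104, 476 and 352 CPM. Their mean was 311 ± 189.6 CPM (SD, n = 3). Library 1 thus held the least and libraries 2 and 3 were closer to each other. The miR-200 family made up 67.7%, 79.1% and 80.9% of these counts.

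The family was led by miR-200b-3p and miR-200c-3p. MiR-200b-3p had 79, 507 and 348 counts in libraries 1, 2 and 3, or 26.3, 204 and 108 CPM (113 ± 88.8, SD, n = 3). Library 1 was lowest and library 2 highest, and the mean was 67.4 CPM without library 2. MiR-200c-3p had 61, 353 and 489 counts, or 20.3, 141.8 and 152 CPM (105 ± 73.4, SD, n = 3). Here too library 1 was lowest, but libraries 2 and 3 were alike within counting error, and the order of miR-200b-3p and miR-200c-3p turned over between library 2 and library 3. By level they stood at ranks 101 to 201 and 106 to 221 of the 651 to 735 miRNAs detected in a library.

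The other family members were lower and steadier. MiR-200a-3p, the main carrier of the second seed, had 49, 56 and 60 counts, or 16.3, 22.5 and 18.7 CPM (19.2 ± 3.13, SD, n = 3). MiR-429-3p had 16, 13 and 13 counts, or 5.32, 5.22 and 4.05 CPM (4.86 ± 0.705, SD, n = 3). MiR-141-3p had 7, 9 and 5 counts, or 2.33, 3.61 and 1.56 CPM (2.50 ± 1.04, SD, n = 3). For each of these 3 miRNAs the Wilson intervals of the libraries overlapped, so no difference between libraries was detectable at this depth on the CPM scale.

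The 3 miRNAs outside the family each peaked in a single library, and not in the same one. MiR-205-5p had 53, 218 and 12 counts, or 17.6, 87.6 and 3.74 CPM (36.3 ± 44.9, SD, n = 3). It was highest in library 2 and lowest in library 3, a 23.4-fold range, and its mean was 10.7 CPM without library 2. MiR-203-3p had 46, 22 and 170 counts, or 15.3, 8.84 and 53.0 CPM (25.7 ± 23.8, SD, n = 3). Library 3 was highest, and without it the mean was 12.1 CPM. MiR-375-3p had 2, 8 and 34 counts, or 0.665, 3.21 and 10.6 CPM (4.83 ± 5.16, SD, n = 3). It too was highest in library 3, without which the mean was 1.94 CPM. By mean CPM the order ran miR-200b-3p, miR-200c-3p, miR-205-5p, miR-203-3p, miR-200a-3p, miR-429-3p, miR-375-3p and miR-141-3p. The means of neighbours in that order differed by less than the larger of their SDs, except those of miR-200a-3p and miR-429-3p, the former being higher in every library.

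**Figure D1:**
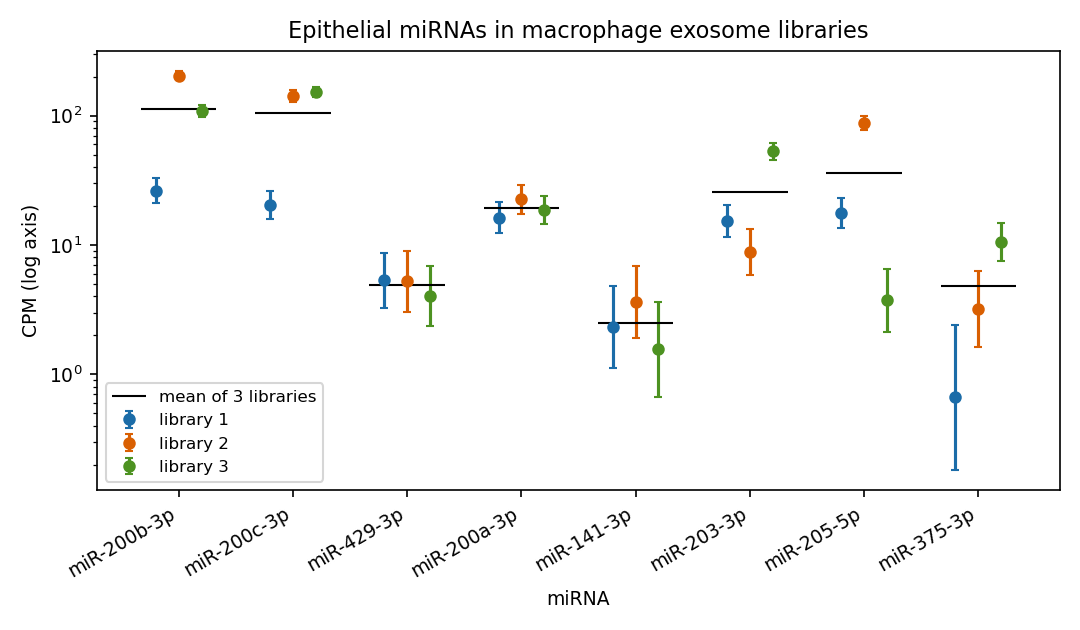
Level of each epithelial miRNA in libraries 1, 2 and 3, in CPM on a log axis, with Wilson 95% intervals as bars and the mean of the 3 libraries as a black line. MiR-200b-3p and miR-200c-3p are lowest in library 1, miR-205-5p spans 3.74 to 87.6 CPM, and the intervals of miR-200a-3p, miR-429-3p and miR-141-3p overlap across libraries.

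**Figure D2:**
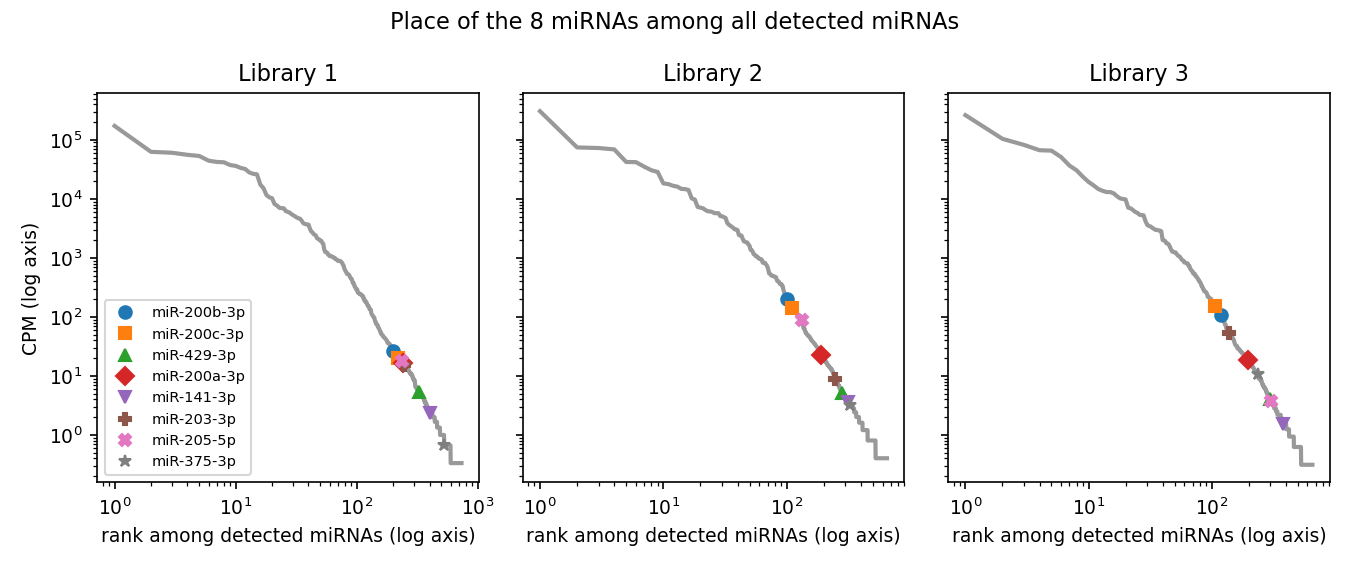
Level in CPM against rank among the miRNAs detected in each library (grey line, both axes log), with the 8 epithelial miRNAs as symbols. They lie between rank 101 (miR-200b-3p in library 2) and rank 528 (miR-375-3p in library 1), and miR-205-5p stands at rank 303 in library 3.

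Whether the libraries differed beyond counting error was asked with a chi-square test of each miRNA's counts against the library totals, over the same 353 miRNAs. The test sets library against library and says nothing of conditions. Of all miRNAs tested, 90.1% were called at a Benjamini-Hochberg adjusted p below 0.05, and of the epithelial miRNAs 5 of 7, with miR-141-3p below the minimum count. MiR-200b-3p (adjusted p = 5.34e-87), miR-205-5p (7.54e-73), miR-200c-3p (1.34e-67), miR-203-3p (2.27e-27) and miR-375-3p (1.20e-07) passed. MiR-200a-3p (adjusted p = 0.262) and miR-429-3p (0.736) did not. The ratio of the highest to the lowest library had a median of 7.52 over the 7 epithelial miRNAs and 3.86 over all 353. Without library 1, miR-200c-3p no longer passed (adjusted p = 0.362), while miR-200b-3p, miR-203-3p, miR-205-5p and miR-375-3p did. With TMM library sizes miR-200a-3p also passed (adjusted p = 6.74e-05).

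MiR-200b-3p and miR-200c-3p were higher in both libraries 2 and 3 than in library 1 beyond counting error. Of the other 3 that passed the test, miR-203-3p and miR-205-5p were each higher in 1 of these libraries and lower in the other. MiR-375-3p was more than 2-fold higher in both, but in library 2 within counting error of no difference. More than 2-fold higher in library 2 than in library 1 were 4 of 7, against 17.8% of all miRNAs tested: miR-200b-3p (7.76-fold, exact 95% counting interval 6.11 to 9.96), miR-200c-3p (6.99-fold, 5.32 to 9.33), miR-205-5p (4.97-fold, 3.67 to 6.84) and miR-375-3p. None was more than 2-fold lower, against 43.3% of all, but miR-203-3p was lower in library 2, at 0.578 times its level in library 1 (0.331 to 0.980). In library 3 over library 1, 4 of 7 were more than 2-fold higher, against 19.5% of all: miR-200c-3p (7.52-fold, 5.75 to 9.98), miR-200b-3p (4.13-fold, 3.23 to 5.34), miR-203-3p (3.47-fold, 2.49 to 4.91) and miR-375-3p. MiR-205-5p was lower in library 3, at 0.212 times its level in library 1 (0.103 to 0.402), and 49.9% of all miRNAs were more than 2-fold lower there. Both ratios of miR-375-3p rest on 2 counts in library 1. They were 4.83 (exact 95% counting interval 0.965 to 46.7) for library 2 and 15.9 (4.09 to 137) for library 3, so the former is within counting error of no difference.

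Over all miRNAs, libraries 2 and 3 were closer to each other by median ratio than either was to library 1. Even so, the chi-square test of these libraries alone called 61.5% of the miRNAs tested. Among the epithelial miRNAs, those outside the miR-200 family differed most between libraries 2 and 3. In library 3, miR-203-3p was 6.00-fold higher than in library 2 (3.83 to 9.82) and miR-375-3p 3.30-fold higher (1.498 to 8.25), which made 2 of 7 more than 2-fold higher against 9.63% of all. MiR-205-5p stood at 0.0427 times its library 2 level (0.0217 to 0.0762), the only one of the 7 more than 2-fold lower against 21.8% of all. MiR-200c-3p was at 1.08 times (0.936 to 1.24), miR-200a-3p at 0.831 (0.568 to 1.22) and miR-200b-3p at 0.533 (0.463 to 0.612).

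TMM scaling moved the log2 ratios against library 1 upward, and with it miR-200b-3p went from 2.96 to 3.57 and miR-200c-3p from 2.81 to 3.42 for library 2 over library 1. The signs of miR-200b-3p, miR-200c-3p, miR-203-3p, miR-205-5p and miR-375-3p stayed as they were in all 3 pairs under TMM and DESeq2 scaling. MiR-429-3p changed sign against library 1, from -0.03 to 0.59 in library 2 and from -0.39 to 0.47 in library 3 with TMM. MiR-141-3p changed from -0.58 to 0.28 in library 3 over library 1, and in library 2 over library 1 it went from 0.64 to 1.25, past a 2-fold difference. MiR-200a-3p went from 0.47 to 1.08 and from 0.20 to 1.06 in libraries 2 and 3, also past a 2-fold difference.

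**Figure D3:**
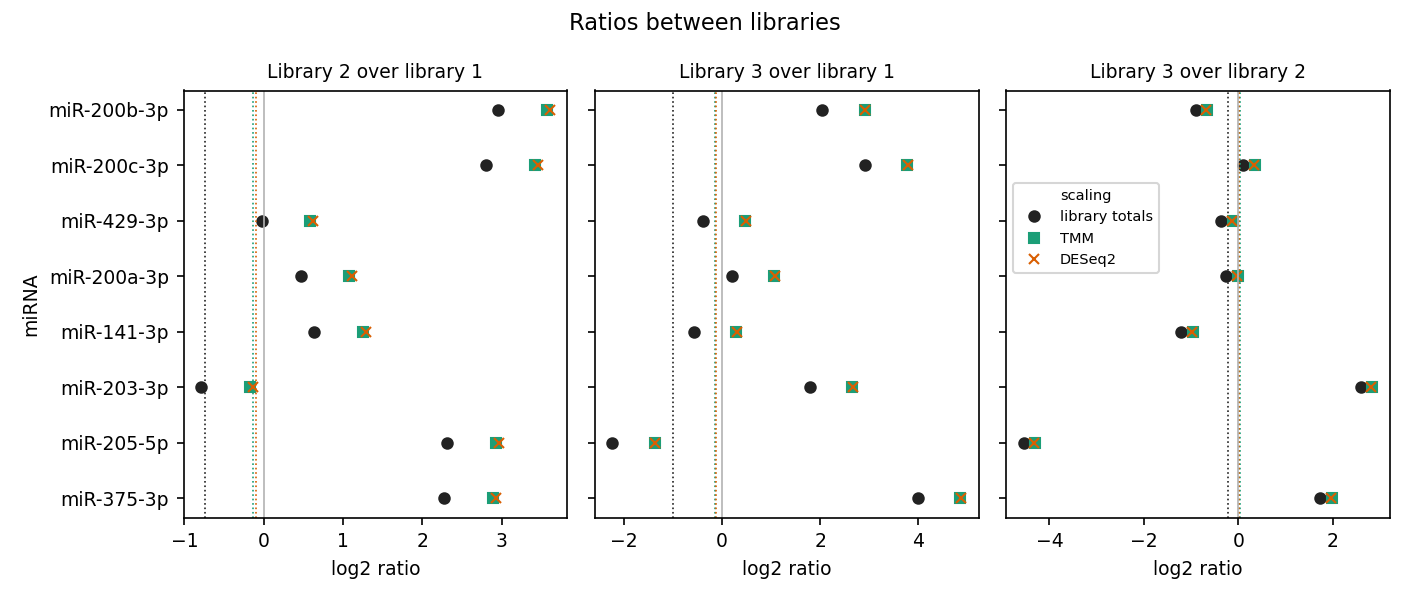
Log2 ratio of each epithelial miRNA between pairs of libraries, scaled by library totals (circles), TMM (squares) or DESeq2 size factors (crosses), with dotted lines at the median of the 353 tested miRNAs in the same colours and a grey line at 0. MiR-200b-3p and miR-200c-3p lie right of the medians in both comparisons with library 1, and miR-205-5p lies far left in library 3 over library 2.

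The make-up of the miR-200 family, which does not depend on how libraries are scaled, differed between library 1 and the others. MiR-200b-3p and miR-200c-3p together took 66.0% of family counts in library 1 (Wilson 95% interval 59.4 to 72.1), 91.7% in library 2 (89.7 to 93.3) and 91.5% in library 3 (89.5 to 93.1). The group with seed AAUACUG took 73.6% of family counts in library 1 (Wilson 95% interval 67.3 to 79.1), 93.1% in library 2 (91.3 to 94.5) and 92.9% in library 3 (91.0 to 94.4), a mean of 86.5% ± 11.2 (SD, n = 3). Libraries 2 and 3 thus agreed within counting error and library 1 lay below both. With 3 libraries an exact sign-flip test cannot give a two-sided p below 0.25, so none was made. The seed groups did not move as blocks, since miR-429-3p, with the seed of miR-200b-3p, went from 7.55% of the family in library 1 to 1.39% and 1.42% in libraries 2 and 3, as miR-200a-3p of the other seed went from 23.1% to 5.97% and 6.56%.

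In each gene cluster 1 miRNA took a larger share in libraries 2 and 3 than in library 1. In the chromosome 4 cluster miR-200b-3p made up 54.9% of counts in library 1 (46.7 to 62.8), 88.0% in library 2 (85.1 to 90.4) and 82.7% in library 3 (78.8 to 86.0). Its main neighbour there, miR-200a-3p, differs from it at 4 of 22 bases, U4C in the seed among them. In the chromosome 6 cluster miR-200c-3p made up 89.7% in library 1 (80.2 to 94.9), 97.5% in library 2 (95.3 to 98.7) and 99.0% in library 3 (97.7 to 99.6), but miR-141-3p had only 5 to 9 counts behind these shares. The division between the clusters followed another order: the chromosome 4 cluster held 67.9% (61.4 to 73.8), 61.4% (58.3 to 64.5) and 46.0% (42.8 to 49.3) of family counts in libraries 1, 2 and 3, so here library 3 stood apart from the others. This division rests mainly on the split between miR-200b-3p and miR-200c-3p, which differ at 2 of 22 bases. It is therefore less certain than the counting intervals alone convey.

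**Figure D4:**
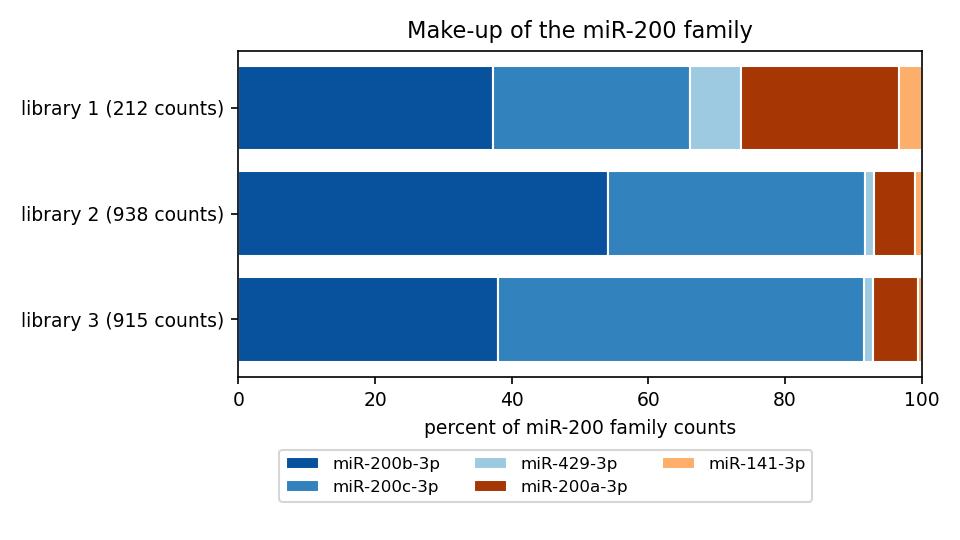
Percent of miR-200 family counts taken by each member in libraries 1, 2 and 3, with the family's count beside each bar. Blue shades are miRNAs with seed AAUACUG and brown and orange those with AACACUG, and the brown and orange part is 26.4% in library 1, 6.93% in library 2 and 7.10% in library 3.

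A miRNA hairpin gives 2 arms, of which one is usually kept as the guide and the other is degraded. The 8 miRNAs were chosen by their known guide arms, and the named arm lay above its partner in all 5 hairpins that reached a summed count of 60, which is largely set by that choice. Over all 157 hairpins tested with edgeR's quasi-likelihood test, with library as a block, 80.3% had arms that differed, 38.9% with the 3p arm higher and 41.4% with the 5p arm higher. MiR-200b-3p had 79, 507 and 348 counts against 1, 7 and 4 of miR-200b-5p, so its share of the pair was 98.8% (93.3 to 99.8), 98.6% (97.2 to 99.3) and 98.9% (97.1 to 99.6). With 1 to 7 counts of the partner arm, a several-fold change in the arm ratio would not be detectable at this depth. The log2 ratio of its 3p to its 5p arm was 6.24 (SE 1.17, edgeR adjusted p = 4.52e-07).

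Among the 5 hairpins tested, miR-200a had the lowest share of counts on its named arm in every library. MiR-200a-3p had 49, 56 and 60 counts against 3, 10 and 18 of miR-200a-5p, a 3p share of 94.2% (84.4 to 98.0), 84.8% (74.3 to 91.6) and 76.9% (66.4 to 84.9) in libraries 1, 2 and 3. The log2 ratio was 2.64 (SE 1.12, edgeR adjusted p = 0.0240), and the call was lost without library 2 (log2 ratio 2.76, adjusted p = 0.279) or without library 3 (3.16, adjusted p = 0.104), where the ratio was no smaller. MiR-200a-5p was at 0.997, 4.02 and 5.61 CPM, lowest in library 1 as miR-200b-3p and miR-200c-3p were.

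No count of the partner arm was seen for miR-200c, miR-203, miR-205, miR-429 or miR-375. Against the floor of 3 counts per library, miR-200c-3p was at least 20.3-fold, 118-fold and 163-fold higher than miR-200c-5p in libraries 1, 2 and 3 (edgeR adjusted p = 3.42e-10). MiR-203-3p was at least 15.3-fold, 7.33-fold and 56.7-fold higher than its 5p arm (edgeR adjusted p = 1.77e-06). MiR-205-5p, the only 5p guide of the 8, was at least 17.7-fold, 72.7-fold and 4.00-fold higher than its 3p arm (edgeR adjusted p = 1.22e-06, and 0.0601 without library 2). MiR-141, miR-375 and miR-429 had too few counts for the test. MiR-141-5p had 1, 2 and 0 counts against 7, 9 and 5 of miR-141-3p, so its hairpin too had partner counts.

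**Figure D5:**
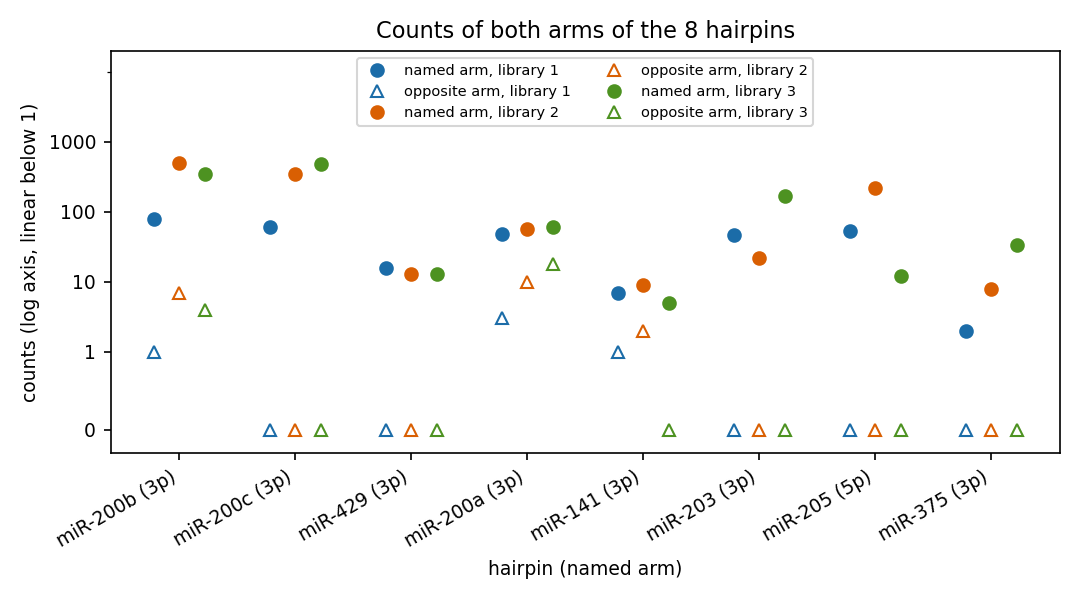
Counts of the named arm (filled circles) and the opposite arm (open triangles) of each hairpin in libraries 1, 2 and 3, on a log axis that is linear below 1. Opposite arms are at 0 in every library for miR-200c, miR-429, miR-203, miR-205 and miR-375, and miR-200a-5p reaches 18 counts in library 3.

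Other miRNAs known from epithelia were set beside these. Of 11 such miRNAs all had a count in some library, and 7 reached 10 counts in each. The highest were miR-183-5p at 7027, 6143 and 11087 CPM and miR-182-5p at 1068, 6441 and 7071 CPM, both from a cluster known from sensory organs, followed by miR-192-5p, known from gut and liver, at 1067, 480 and 469 CPM. The third place rested on library 1: miR-96-5p, of the same cluster as miR-183-5p and named after its values were seen, was at 96.7, 951 and 590 CPM, and without library 1 its mean was 770 CPM against 475 for miR-192-5p. The miR-200 family summed to 70.5, 377 and 285 CPM, below each of miR-183-5p, miR-182-5p, miR-192-5p and miR-96-5p in every library, though miR-192-5p and the family were closer in libraries 2 and 3 than in library 1. By the chi-square test 7 of 8 tested members of the list differed between libraries, against the 90.1% of all. More than 2-fold higher in library 2 than in library 1 were 4 of 8, against 17.8% of all, and lower 2 of 8, against 43.3%. In library 3 against library 1, 3 of 8 were higher, against 19.5% of all, and 2 of 8 lower, against 49.9%. MiR-182-5p was among the higher and miR-192-5p among the lower in both, so the list had no common direction. At the low end, miR-31-5p, a miRNA of skin and other epithelia, had 1, 2 and 0 counts.

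Lists of other tissues gave a scale for these levels. The 4 stromal miRNAs (miR-199a-3p, miR-214-3p, miR-143-3p and miR-145a-5p) summed to 247, 140.97 and 135 CPM, so the miR-200 family was below them in library 1 and above them in libraries 2 and 3. The pair of endothelial miR-126a arms summed to 25.9, 44.6 and 25.2 CPM. The 3 muscle miRNAs (miR-1a-3p, miR-133a-3p and miR-206-3p) stayed between 0 and 2.66 CPM, and the neuronal miR-124-3p had no count in any library, while the neuronal miR-9-5p was at 5.65, 10.8 and 14.02 CPM. The lymphoid miR-150-5p had 1 count over the 3 libraries.

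The miRNAs whose levels varied most like the miR-200 family sum were miR-24-1-5p, miR-3967 and miR-98-5p, with root mean square differences of 0.162, 0.169 and 0.173 on the centred log2(CPM + 1) scale, against a median of 1.48 over 346 miRNAs. MiR-98-5p, a let-7 relative, was at 293, 1158 and 1001 CPM. MiR-24-1-5p and miR-3967 had summed counts of only 64 and 32. In library 1 they were at 1.99 and 0.665 CPM, near or below the floor of 0.997 CPM, so their closeness rests on few counts. MiR-205-5p had no such close company: its nearest were miR-708-5p, miR-322-5p and miR-6911-3p at 0.976, 1.10 and 1.11, against a median of 1.84. These rest on 3 libraries and are a description.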

How the data were processed

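Small RNA of 3 exosome libraries of 1 group was analysed. Per the labels' protocols, RNA was extracted with TRIzol, ligated to adapters, amplified and size-selected on a gel, without molecular identifiers being mentioned, so counts are of PCR products. The submitters' processing notes name bcl2fastq, BWA and mm10. Trimming, mismatches, multi-mapping and the miRNA release are not given in the sources used here. MiR-199a-3p and miR-199b-3p had equal counts in every library (1351 summed for each), so library totals may hold some reads more than once. The authors deposited a whole-number count for each of 1915 mature miRNAs, which was tested here. They also deposited a normalized value, which the values show to be RPM over 13995846 to 14047692 per library, of which miRNA counts are 17.8% to 22.9%.

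Counts were scaled to each library's miRNA total. The chi-square test (SciPy 1.17.1, summed count of at least 30) and edgeR 4.0.16's quasi-likelihood arm test (summed count of at least 60, 157 of 749 hairpins) used Benjamini-Hochberg adjustment over all features tested and a threshold of 0.05. Both were tried on simulated counts. The chi-square simulation had no unplanned spread between libraries beyond counting error, so it bears on counting error only. In the data the common coefficient of variation between libraries was 76.7% (edgeR, 353 miRNAs). The arm simulation used a set spread not taken from these data, so it does not show that test's error rate here. Arms of a library were paired because they come from that library. The alternatives were TMM and DESeq2 1.42.0 scaling, the authors' RPM, no count filter, no block, the DESeq2 Wald test and each library left out. Members and lists were chosen with earlier results of these data known. Named were all members and their partner arms, the 3 highest of the other epithelial miRNAs and the 3 most similar miRNAs. Values of miR-31-5p, miR-96-5p, miR-199a-3p, miR-199b-3p, miR-223-3p, miR-342-3p and miR-9-5p were added after they were seen. Loci are from RefSeq (GRCm38.p6) and GENCODE.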

Additional observations from a re-analysis of the deposited data

How the results depend on the processing

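Of the 198 values recomputed under another setting, 177 were taken as the same. Levels and shares had to move by less than the SD between libraries. Leaving out 1 of 3 libraries can never move a mean by that much, so those settings were bound to count as the same. MiR-205-5p counted as the same at 10.7 CPM without library 2 and at 6.74 by the authors' RPM, against 36.3 CPM. The 177 is therefore no measure of stability. Test results had to keep their side of the threshold, and 4 to 7 calls were taken as the same as 5. Ratios between libraries had to keep their side of a 2-fold difference. Sign changes below 2-fold, as for miR-429-3p and miR-141-3p against library 1, therefore fell among the 177. No called arm direction and no ratio beyond 2-fold reversed. The authors' RPM has a larger denominator, so on that scale the 8 epithelial miRNAs summed to 62.6 in place of 311 CPM and the miR-200 family took 0.00492% in place of 0.0244%. The arm test called 5 of 5 hairpins, and 80.3% of all hairpins tested. Leaving out 1 library at a time gave 3 to 5 of 5: 5 without library 1 (85.9% of all), 3 without library 2 (65.6%) and 4 without library 3 (69.5%). Without the replicate block (no pairing of arms within a library) it called 5 of 5 (80.3%). With DESeq2 it also called 5 of 5 (82.2%), and with no count filter 7 of 8 (35.5%). The chi-square test called 5 of 7, and 90.1% of all miRNAs tested. It called 4 of 6 without library 1 (61.5%), 5 of 6 without library 2 (86.9%), 4 of 5 without library 3 (87.5%), 6 of 7 with TMM sizes (89.5%) and 5 of 8 with no count filter (41.8%). Ratios between libraries under TMM and DESeq2 scaling were chosen after seeing the data. Depth limits miR-141-3p, miR-375-3p and miR-429-3p, with summed counts of 21, 44 and 42.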
